A study of Mus musculus with 40 samples.

Results

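Atf4, Atf3, Atf5, Ddit3, Ddit4, Cebpb, Cebpg, Nupr1, Trib3 and Chac1 are transcription factors and effectors of the integrated stress response. These 10 genes were taken by symbol from the 23480 genes of the tables. Earlier results of these data were known when the 10 were chosen. They were followed across 10 derivatives of 4T1, a line grown from a mouse mammary tumour. Each derivative expressed a different short hairpin RNA (shRNA), a stem-loop cut by the cell into a small RNA that lowers the mRNAs it pairs with. The study asked how far hairpins from different design sources disturb mRNAs other than their target.

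The groups were the 10 hairpins. In the Slpi table these were hairpin 66708, selected with 1 µg/ml puromycin, and Slpi1U1, Slpi1U2, Slpi2 and Slpi4, selected with 500 µg/ml hygromycin. In the Mgp table they were hairpin 88943, under the same dose of puromycin, and Mgp1, Mgp1U1, Mgp1U3 and Mgp2, under the same dose of hygromycin. All lines were infected at a multiplicity of 0.3 and kept under the drug for about 10 days, so every line, the reference lines included, carries a vector and a selection drug. Slpi encodes a secreted protease inhibitor and Mgp encodes matrix Gla protein. Hairpins 66708 and 88943 are called TRC hairpins and the gene-named ones shERWOOD hairpins. That assignment was inferred from the names and the drug, since the labels do not give it per sample. Source, drug and hairpin cannot be told apart, because each table holds 1 TRC hairpin, and no untransduced line was analysed here. Each hairpin had 2 columns of values (n = 2 throughout). The labels list 4 samples per hairpin and do not tie single columns to samples, so the spread between columns may be technical.

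In the integrated stress response, kinases such as PERK (Eif2ak3) and GCN2 (Eif2ak4) phosphorylate the initiation factor eIF2, which lowers protein synthesis in general. Atf4 mRNA carries upstream open reading frames and is translated better under these conditions, so ATF4 protein can rise without a change in its mRNA. ATF4 pairs with C/EBP partners on composite C/EBP-ATF response elements (CARE) and switches on genes for amino acid supply, further transcription factors and feedback regulators. Only mRNA was measured here.

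The CARE is the sequence through which ATF4 is known to act, so its core, TGATGNAA, was searched on both strands in the window from 250 bases before to 50 bases after each RefSeq start (GRCm38.p6). All 10 genes had a window. The core occurred in 4 of 10 genes, Atf3, Chac1, Nupr1 and Trib3, against 3.97% of all 32851 windows and 4.51% of the 27025 genes with a window. The first 3 are printed because their match lies upstream of the start. In Trib3 the letters lie 14 bases inside the transcribed part. The stretches are on the gene's strand, 5′ to 3′, with the core in capitals as its reverse complement.
Atf3, chr1:191183416-191183463, minus strand: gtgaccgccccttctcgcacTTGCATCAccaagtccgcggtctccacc
Chac1, chr2:119351029-119351076, plus strand: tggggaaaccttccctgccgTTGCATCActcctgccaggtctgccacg
Nupr1, chr7:126625553-126625600, minus strand: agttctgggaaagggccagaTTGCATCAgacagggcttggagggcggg
All 3 hold the same 8 letters. The first of them lies 110 bases upstream of the start in Atf3 and Nupr1 and 193 bases upstream in Chac1. The plain cyclic AMP response element, TGACGTCA, occurred in 0 of 10 genes and in 1.79% of windows. A match is a run of letters and was not tested as a binding site.

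The libraries held 12176854 to 28533761 reads in the Slpi table and 12082237 to 23307340 in the Mgp table, recovered from the deposited values, so single members rested on between 46 (Trib3) and 10369 (Atf4) reads per library. Slpi mRNA stood at 48.2 to 60.9 CPM (reads of a gene scaled to a fixed library total) in the 4 Slpi shERWOOD lines and at 151 CPM in 66708, and Mgp at 1.15 to 8.32 CPM in the 4 Mgp shERWOOD lines and at 15.8 CPM in 88943. The gene not targeted differed as well, with Mgp at 15.4 to 29.9 CPM in the Slpi shERWOOD lines and 105 CPM in 66708, and Slpi at 453 to 586 CPM in the Mgp shERWOOD lines and 139.9 CPM in 88943. Summed CPM of 6 epithelial markers was 1996 to 2143 in the Slpi shERWOOD libraries and 2251 to 2296 in 66708, and 1533 to 1720 in the Mgp shERWOOD libraries and 2577 to 2583 in 88943. Of the leukocyte markers Ptprc, Lyz2, Cd3e and Cd79a none exceeded 0.262 CPM in any library, and of the endothelial and fibroblast markers Pecam1, Cdh5, Kdr, Pdgfrb and Dcn none exceeded 0.750 CPM. The other markers of these lists were Csf1r, at up to 0.836 CPM, Cd68, at 3.33 to 8.17 CPM, and Pdgfra, at 24.6 to 57.3 CPM. In such bulk libraries fewer cells expressing a gene and less RNA per cell cannot be told apart.

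Across the 10 lines the effectors varied far more than Atf4. The highest line exceeded the lowest 14.0-fold for Trib3, 11.6-fold for Chac1, 10.0-fold for Ddit4 and 6.02-fold for Nupr1. For the transcription factors the same ratio was 4.63-fold for Atf5, 4.48-fold for Atf3, 2.99-fold for Ddit3, 2.03-fold for Cebpg, 2.02-fold for Atf4 and 1.83-fold for Cebpb. Per kilobase of exon, Atf4 was the most abundant of the 10 in every line, at 107 to 216 CPM per kb, and the nearest highest values were 71.1 for Chac1, 52.1 for Ddit4 and 46.8 for Nupr1. Ddit3, at 2.23 to 6.66 CPM per kb, was among the least abundant. CPM values set side by side across the tables are levels only, since the tables were normalized separately and no test was run between them.

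**Figure D1:**
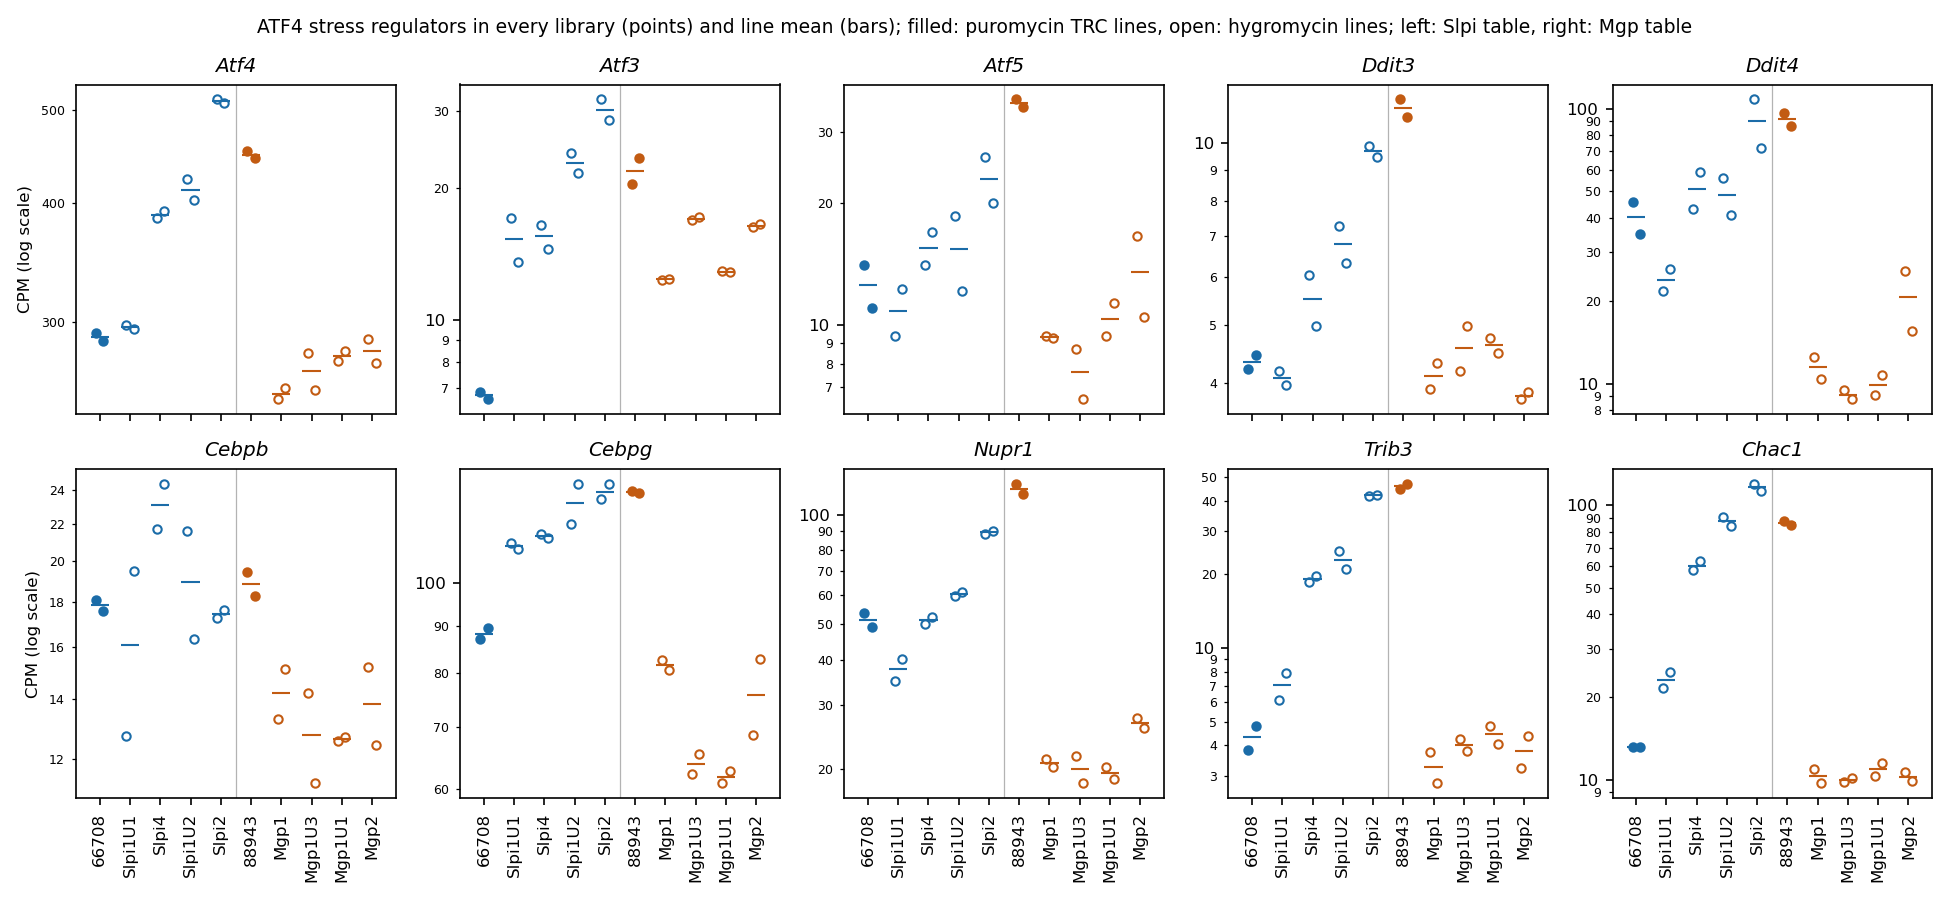
CPM of the 10 genes on log axes, 1 panel per gene, in the 5 lines of the Slpi table (blue, left) and of the Mgp table (orange, right), where points are libraries, bars are line means and filled points are the puromycin-selected TRC lines. Slpi2 and 88943 stand at or near the top for most genes, and the 4 Mgp shERWOOD lines lie close together for Atf4, Trib3 and Chac1.

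Atf4 (chr15:80255184-80257541, plus strand, GRCm38) encodes the activator at the centre of the response. In the Slpi table it measured 292 and 286 CPM in 66708, 298 and 295 in Slpi1U1, 385 and 391 in Slpi4, 423 and 402 in Slpi1U2, and 513 and 508 in Slpi2. The libraries thus formed 3 steps, with 66708 and Slpi1U1 low, Slpi4 and Slpi1U2 between, and Slpi2 high. Neighbours within a step did not pass the test. On the log2-like scale of the deposited values, 66708 minus Slpi1U1 was 0.06 ± 0.04 (SE, adjusted p = 0.261) and Slpi1U2 minus Slpi4 was 0.05 ± 0.04 (adjusted p = 0.488). Neighbours across a step did. Slpi1U1 lay 0.38 ± 0.04 below Slpi4 (adjusted p = 1.64e-04), and Slpi2 exceeded Slpi1U2 by 0.31 ± 0.04 (adjusted p = 0.00142), or 1.26-fold. In the Mgp table both 88943 libraries, at 452 and 445 CPM, lay above all 8 shERWOOD libraries, which spanned 249 to 288 CPM. The 4 Mgp shERWOOD lines were not called different for Atf4 (moderated F test, adjusted p = 0.0852). Without the second Mgp2 library or the first Mgp1U3 library that p was 0.00994 and 0.0449.

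Chac1 and Trib3 are effector genes downstream of ATF4. Chac1 (chr2:119351229-119354381, plus strand) encodes an enzyme that degrades glutathione. It measured 13.2 and 13.1 CPM in 66708, 21.6 and 24.8 in Slpi1U1, 57.9 and 62.7 in Slpi4, 91.0 and 84.2 in Slpi1U2, and 119.9 and 113 in Slpi2. No 2 of these 5 lines overlapped. All 10 pairs of lines of the Slpi table were called for Chac1, where 0.79% to 48.5% of genes past the minimum were called per pair. On the deposited scale, which understates the fold of low genes, 2 pairs were closest. They were 66708 under Slpi1U1 by 0.34 ± 0.05 (adjusted p = 8.60e-05) and Slpi1U2 under Slpi2 by 0.34 ± 0.05 (adjusted p = 0.00237). In scaled reads the gap was 1.64-fold between 66708 and Slpi1U1, 1.42-fold between Slpi1U2 and Slpi4, and 1.35-fold between Slpi1U2 and Slpi2. The last was not called without the first Slpi2 library (adjusted p = 0.0578). In the Mgp table the 88943 libraries stood at 87.7 and 84.7 CPM and the 8 shERWOOD libraries at 9.69 to 11.5 CPM, so Chac1 was nearly level within the shERWOOD lines of Mgp and spread 5.03-fold within those of Slpi.

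Trib3 (chr2:152337422-152344032, minus strand), encoding a pseudokinase that restrains ATF4 and CHOP activity, gave the same order of lines. Its values were 3.84 and 4.80 CPM in 66708, 6.11 and 7.93 in Slpi1U1, 18.6 and 19.8 in Slpi4, 24.8 and 20.9 in Slpi1U2, and 41.9 and 42.1 in Slpi2. Slpi2 exceeded Slpi1U1 by 6.05-fold in scaled reads (1.25 ± 0.05 on the deposited scale, adjusted p = 3.42e-09). Slpi1U2 and Slpi4 did not differ beyond their spread (0.11 ± 0.05, adjusted p = 0.239). Both 88943 libraries, at 44.8 and 46.9 CPM, exceeded the 8 Mgp shERWOOD libraries, at 2.79 to 4.81 CPM.

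Ddit4 (chr10:59949669-59951834, minus strand), encoding REDD1, an inhibitor of mTORC1 that also responds to hypoxia, and Nupr1 (chr7:126623249-126630861, minus strand), encoding a small stress-induced chromatin protein, departed from that order in 66708. Ddit4 stood at 45.9 and 35.0 CPM in 66708 and at 21.7 and 26.0 in Slpi1U1, with 43.0 and 58.6 in Slpi4, 55.7 and 40.9 in Slpi1U2, and 108 and 72.0 in Slpi2. Both 66708 libraries were thus above Slpi1U1 (1.82-fold, 0.51 ± 0.13, adjusted p = 0.00537) and overlapped Slpi1U2 and Slpi4. When all genes with any spread were fitted, that Ddit4 difference had an adjusted p of 0.0584, and without the first 66708 library 0.0732. For Nupr1, 66708 gave 53.7 and 49.2 CPM and Slpi1U1 35.0 and 40.2 CPM (1.47-fold, 0.36 ± 0.05, adjusted p = 5.97e-05), while Slpi2 reached 88.7 and 90.1. The direction of 66708 against Slpi1U1 was therefore opposite for Ddit4 and Nupr1 and for Chac1 and Trib3.

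Among the Mgp lines Ddit4 reached 96.7 and 86.2 CPM in 88943 and 8.77 to 25.6 in the shERWOOD libraries, and Nupr1 reached 122 and 114 CPM against 18.3 to 27.7. Within the shERWOOD lines Mgp2 was highest for both. Its libraries stood at 25.6 and 15.5 CPM for Ddit4 and 27.7 and 25.9 CPM for Nupr1, and neither gene overlapped another shERWOOD line. Mgp2 was singled out by these values, so its calls are a description. Between Mgp1U3 and Mgp2 25.1% of genes past the minimum were called. Mgp2 exceeded Mgp1U3 2.22-fold for Ddit4 (0.48 ± 0.08, adjusted p = 0.00143) and 1.32-fold for Nupr1 (0.21 ± 0.05, adjusted p = 0.00810; 0.106 without the second Mgp1U3 library).

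Atf3, Atf5 and Ddit3 (CHOP) are transcription factors downstream of ATF4. Atf3 (chr1:191170296-191218039, minus strand), an early stress repressor, was lowest of all 10 lines in 66708, at 6.86 and 6.59 CPM, and highest in Slpi2, at 31.8 and 28.5 CPM. Slpi1U1, with 17.1 and 13.5 CPM, and Slpi4, with 16.5 and 14.5, overlapped, although their Atf4 levels did not (Atf3 difference 0.02 lower in Slpi1U1, adjusted p = 0.865). Among the Mgp lines Atf3 stood at 20.4 and 23.3 CPM in 88943, above all 8 shERWOOD libraries at 12.3 to 17.1 CPM. Mgp1U3 exceeded Mgp1 by 1.41-fold (0.21 ± 0.04, adjusted p = 0.00625), a call lost without the first or second Mgp1 library (0.0796 and 0.0625).

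Atf5 (chr7:44812256-44816658, minus strand), whose product takes part in the mitochondrial unfolded protein response, measured 36.1 and 34.5 CPM in 88943 and 6.54 to 16.5 CPM in the Mgp shERWOOD libraries. In the Slpi table it was 26.0 and 19.97 CPM in Slpi2 and 9.39 to 18.6 CPM in the other shERWOOD libraries, with 14.1 and 11.005 in 66708 among them. Ddit3 (chr10:127290774-127296288, plus strand) encodes a factor tied to cell death under lasting stress, and was high in 88943, at 11.8 and 11.03 CPM, and in Slpi2, at 9.87 and 9.47 CPM. Its other 16 libraries lay between 3.76 and 7.27 CPM, with 66708 (4.22 and 4.45) and Slpi1U1 (4.18 and 3.97) side by side. Ddit3 fell under the minimum level for testing in both tables and Trib3 in the Mgp table. Their differences come from a fit on all genes with any spread.

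Cebpg and Cebpb encode C/EBP proteins that can pair with ATF4. Cebpg (chr7:35046422-35056573, minus strand) held a narrow range within the Slpi shERWOOD lines, at 109 to 128 CPM, and was not called different among them (F test, adjusted p = 0.0989; 0.0471 without the first Slpi1U2 library). Both 66708 libraries, at 87.1 and 89.4 CPM, lay below all 8 of them. Among the Mgp lines Cebpg was 126 and 125 CPM in 88943 and 60.8 to 82.8 CPM in the shERWOOD libraries. Cebpb (chr2:167688915-167690418, plus strand) had the smallest ratio of highest to lowest mean over the 10 lines, at 1.83-fold. It did not vary least within the shERWOOD lines. There the ratio was 1.43-fold for Slpi, against 1.15-fold for Cebpg. For Mgp it was 1.13-fold, against 1.11-fold for Atf4 and 1.09-fold for Chac1. Single libraries of Cebpb ranged from 12.7 to 24.4 CPM in the Slpi table and from 11.3 to 19.4 CPM in the Mgp table. The 2 Slpi1U1 libraries alone stood at 12.7 and 19.5 CPM. Of the exon bases of Cebpb 20.7% overlap the antisense gene Tmem189. The strand setting of the counting was not given in the sources used here, so reads of such pairs cannot be told apart. The overlap was 4.11% of Atf5 with Nup62 or Il4i1 and 3.97% of Ddit3 with Mars.

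The design implies a comparison of each TRC hairpin with the mean of the 4 shERWOOD hairpins of its table. In 66708 Chac1 was 5.13-fold lower, Trib3 4.96-fold, Atf3 2.93-fold, Ddit3 1.41-fold, Atf4 1.31-fold and Cebpg 1.25-fold lower. In 88943 all 10 genes were higher, by 10.8-fold for Trib3, 7.57-fold for Chac1, 6.53-fold for Ddit4, 4.92-fold for Nupr1, 3.15-fold for Atf5, 2.43-fold for Ddit3, 1.62-fold for Cebpg, 1.52-fold for Atf4, 1.36-fold for Atf3 and 1.29-fold for Cebpb. Fitted over all genes with any spread, the members called were 6 of 10 in 66708, all lower, where 27.5% of all genes were called and 13.2% were called lower. For 88943 they were 10 of 10, all higher, where 43.6% of all genes were called and 22.2% were called higher. Among genes past the minimum, 5 of 9 members were called in 66708, where 55.7% of genes were. In 88943 they were 8 of 8, where 70.7% of genes were called. With so large a background, a call alone does not set a member apart.

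**Figure D2:**
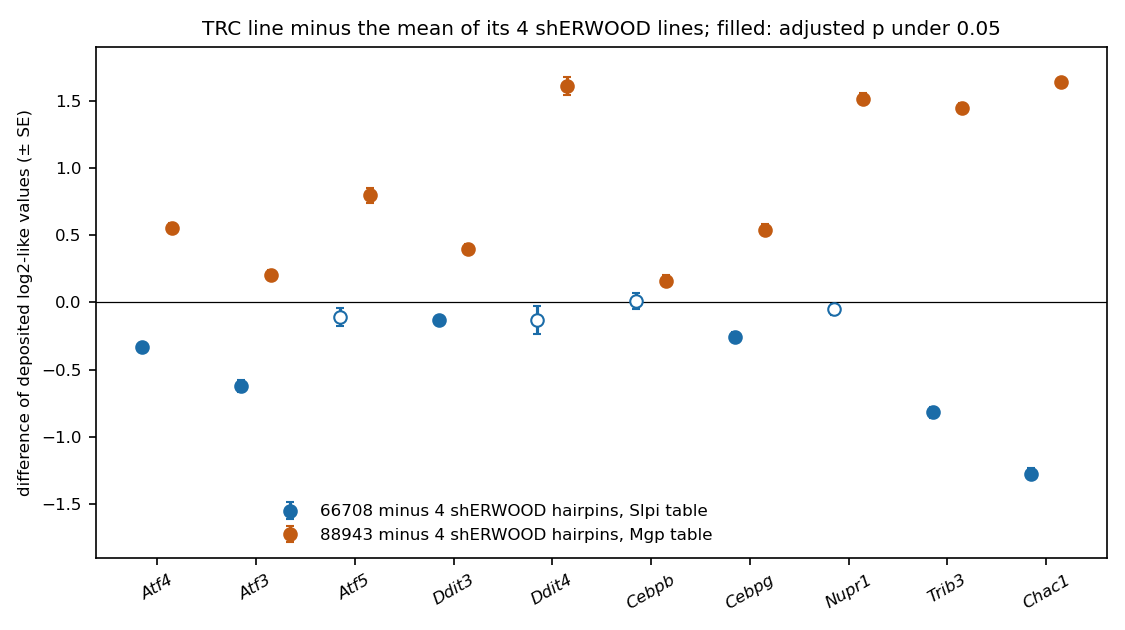
Difference between each TRC line and the mean of its 4 shERWOOD lines for the 10 genes, on the log2-like scale of the deposited values with its SE, blue for 66708 in the Slpi table and orange for 88943 in the Mgp table; filled points have an adjusted p under 0.05. All 10 orange points lie above 0, while the blue points run from -1.28 for Chac1 to 0.01 for Cebpb.

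For 66708 the difference was -1.28 ± 0.04 for Chac1 (adjusted p = 9.80e-12), -0.82 ± 0.04 for Trib3 (adjusted p = 1.68e-09) and -0.62 ± 0.04 for Atf3 (adjusted p = 3.14e-08). For Atf4 it was -0.33 ± 0.03 (adjusted p = 1.18e-06). Cebpg, at -0.26 ± 0.04, and Ddit3, at -0.13 ± 0.03, were also called (adjusted p = 4.85e-05 and 0.0141). Atf5 (-0.11, adjusted p = 0.197), Ddit4 (-0.13, adjusted p = 0.306), Nupr1 (-0.05, adjusted p = 0.306) and Cebpb (0.01, adjusted p = 0.896) did not pass. On the deposited scale both 66708 libraries lay below all 8 shERWOOD libraries for Atf3, Cebpg, Trib3 and Chac1, as did 20.4% of genes past the minimum level. For Atf4 they overlapped Slpi1U1. The average of the 4 lines hides their own differences. With each hairpin's mean as 1 sample, so that the spread was that between hairpins, the adjusted p for 66708 was 0.230 for Atf4, 0.0823 for Trib3 and 0.0510 for Chac1, while Atf3 and Cebpg stayed called. Of the 6 epithelial markers 4 were higher in 66708, with Epcam at 0.60, and 2 were lower, Krt7 at -0.47 and Krt19 at -0.43. Their part in the result was not tested.

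For 88943 the difference was 1.64 ± 0.03 for Chac1 (adjusted p = 5.44e-15), 1.61 ± 0.07 for Ddit4 (adjusted p = 8.50e-12), 1.52 ± 0.04 for Nupr1 (adjusted p = 4.11e-14) and 1.45 ± 0.04 for Trib3 (adjusted p = 2.02e-10). These 4 effectors led the members. On the deposited scale Atf5 followed at 0.80 ± 0.06, Atf4 at 0.56 ± 0.04, Cebpg at 0.54 ± 0.04 and Ddit3 at 0.40 ± 0.03. That scale understates the fold of low genes. In scaled reads Trib3 was highest, at 10.8-fold, and Ddit3, at 2.43-fold, exceeded Cebpg (1.62-fold) and Atf4 (1.52-fold). Atf3 (0.21 ± 0.03, adjusted p = 3.60e-05) and Cebpb (0.16 ± 0.04, adjusted p = 0.00312) were smallest. Both 88943 libraries lay above all 8 shERWOOD libraries for all 10 genes, as did 24.3% of genes past the minimum level. Atf3 was lost with hairpin means as samples (adjusted p = 0.0576), and Cebpb without the first 88943 library (adjusted p = 0.0605). Epithelial markers also stood higher in 88943, by up to 1.13 for Epcam, and Pdgfra by 0.48. Their part in the result was not tested.

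The 4 shERWOOD hairpins of a table are named for 1 target and share the drug, and differences among them do not involve the TRC hairpin. For Slpi, 7 of 10 members differed among the 4 lines by the moderated F test over all genes with any spread, where 1.29% of genes did. They were Chac1, Trib3, Atf4, Nupr1, Atf3, Ddit3 and Ddit4, with adjusted p from 1.56e-05 for Chac1 to 0.0360 for Ddit4. Among genes past the minimum, where 7.55% were called, Atf5 also passed (adjusted p = 0.0119; 0.130 without the first Slpi2 library), while Cebpb (0.114; 0.00365 without the second Slpi1U1 library) and Cebpg did not. For Mgp, 4 of 10 differed in the wider fit, Atf3, Cebpg, Ddit4 and Nupr1, where 7.66% of genes did. Chac1, the member with the smallest p in Slpi, had an adjusted p of 0.828 there, Trib3 0.428 and Atf4 0.178. Atf5 passed in the narrower fit (adjusted p = 0.0293), which called 29.4% of genes, and was lost without any 1 of 7 libraries.

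Slpi2 and Slpi1U1 had the highest and lowest mean of the 4 Slpi shERWOOD lines for 9 of 10 members, and for Cebpb the highest was Slpi4, at 23.1 CPM. This pair was chosen by those values, so its calls are a description. In the wider fit 7 of 10 members were lower in Slpi1U1 than in Slpi2, against 0.872% of genes called in either direction. In scaled reads, Slpi2 exceeded Slpi1U1 5.08-fold for Chac1, 3.81-fold for Ddit4, 2.41-fold for Nupr1, 2.40-fold for Ddit3, 2.00-fold for Atf3 and 1.74-fold for Atf4. These hairpins are named for the same target, and Slpi mRNA itself was 48.6 CPM in Slpi2 and 48.2 CPM in Slpi1U1.

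Whether Atf4 mRNA follows its targets was then asked by setting line means of Atf4 beside those of each member, on log2 CPM over the 10 lines. Pearson's r was 0.98 for Trib3 (Spearman's rho 0.93), 0.98 for Chac1 (0.93), 0.91 for Ddit3 (0.70), 0.90 for Ddit4 (0.93), 0.90 for Nupr1 (0.90), 0.87 for Atf5 (0.92) and 0.84 for Cebpg (0.92). It was 0.71 for both Atf3 (0.66) and Cebpb (0.72). The lines form a low cluster, from 252 to 296 CPM of Atf4, and a high cluster of 4 lines, from 388 to 510 CPM, so these values describe the lines and carry no test. Points of a table share its normalization. The share of all genes that reach such values of r with Atf4 is not given, so the lower values do not set a member apart. Without Slpi2 and 88943, the 2 lines farthest from the median Atf4 level, r stayed at 0.98 for Trib3 and 0.98 for Chac1 and fell to 0.45 for Atf3. Slpi4 and Slpi1U2 remained in the high cluster, so the gap between clusters was kept. Such an r cannot show whether members follow Atf4 within a cluster. With the deposited values centred within each table it was 0.97 for Trib3, 0.96 for Chac1 and 0.46 for Cebpb.

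**Figure D3:**
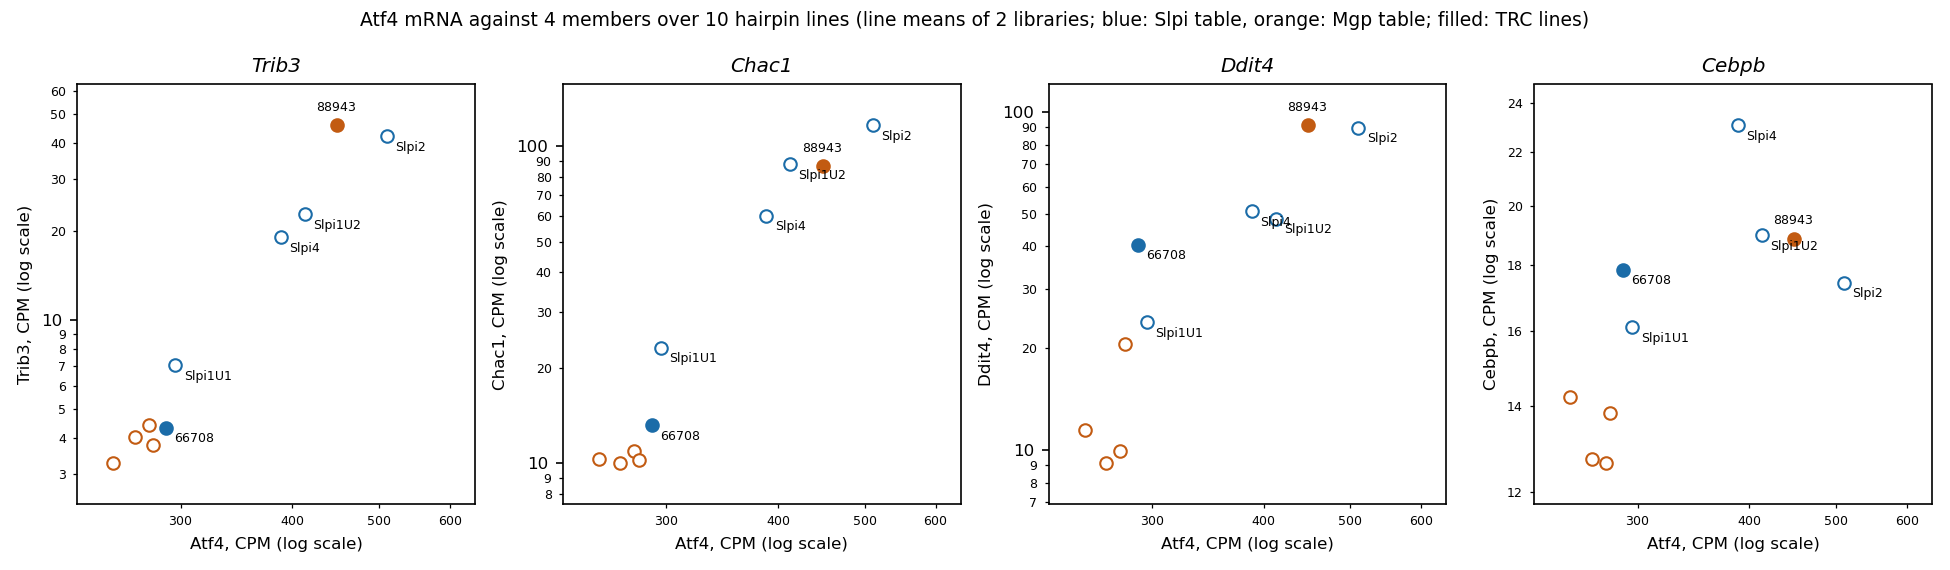
Line means of Trib3, Chac1, Ddit4 and Cebpb against Atf4 in CPM on log axes, for the 10 lines (2 libraries each; blue for the Slpi table, orange for the Mgp table, filled for TRC lines). Trib3 and Chac1 climb with Atf4 over both tables, Ddit4 in 66708 stands at 40.4 CPM against 23.8 CPM in Slpi1U1 at a like Atf4 level, and Cebpb is highest in Slpi4.

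In the fit as reported, members called together with Atf4 had its sign in both tables. In the Slpi table Atf4 was called in 8 of 10 pairs of lines, and a further member was called together with it in 44 instances, all 44 of the same sign. Mgp lines called Atf4 in the 4 pairs with 88943, with 36 of 36 instances of the same sign. Both 88943 libraries lay above all 8 shERWOOD libraries for every member. The common sign was thus fixed in advance and tells nothing further about whether members follow Atf4. Ddit3 in both tables and Trib3 in the Mgp table were counted from the fit on all genes with any spread. Of genes past the minimum, 38.5%, 48%, 48% and 48.5% were called in the 4 pairs with 66708 and 0.79%, 1.64%, 2.4%, 4.18%, 4.66% and 6.48% in the other Slpi pairs. In the pairs with 88943 63.3%, 64%, 64% and 67.3% were called. These shares are for either direction, and the share called with the sign of Atf4 is not given. Leaving out single libraries brought calls of opposite sign, for Cebpb in 1 of 2 instances without the first Slpi1U1 library and 1 of 3 without the second, and for Cebpg in 1 of 5 without the first Mgp2 library and 2 of 6 without the second. Pairs share lines and are not independent. Members were also called where Atf4 was not, in 8 instances in the Slpi table and in 15 in the Mgp table. In 66708 against Slpi1U1 Atf3 (2.12-fold), Chac1 (1.64-fold), Trib3 (1.52-fold) and Cebpg (1.16-fold) were lower in 66708 and Ddit4 and Nupr1 higher. Trib3 there lost its call under quantile normalization (adjusted p = 0.150), with all genes with any spread fitted (0.0563), without the first 66708 library (0.135) and without the second Slpi1U1 library (0.151), and Cebpg without the first 66708 library (0.0580). Between Slpi1U2 and Slpi4 Chac1 (1.42-fold, adjusted p = 8.10e-04) and Atf3 (1.44-fold, adjusted p = 0.0112) were higher in Slpi1U2. The Atf3 call was lost with all genes with any spread fitted (adjusted p = 0.0724), without the first Slpi1U2 library (0.111) and without the second Slpi4 library (0.122). In the Mgp shERWOOD pairs Atf4 was uncalled in all 6 in the fit as reported, with 1 to 4 members called in each, where 7.24%, 7.66%, 7.68%, 8.26%, 12% and 25.1% of genes past the minimum were. Atf4 was called in 1 of these 6 under quantile normalization and without the first Mgp2 library or either Mgp1U3 library, and in 2 without the second Mgp2 library.

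Scaled against Atf4, the members changed by unequal amounts. Between Slpi1U1 and Slpi2 Atf4 rose 1.74-fold, Trib3 6.05-fold and Cebpg 1.16-fold, the last not called (adjusted p = 0.0540). Against the Mgp shERWOOD mean, 88943 had 1.52-fold more Atf4, beside 1.29-fold for Cebpb, 1.36-fold for Atf3, 1.62-fold for Cebpg and 2.43-fold or more for 6 other members.

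Outside the members, the 5 genes most like Atf4 among 9136 compared over the 10 lines were Mthfd2 (r = 0.99), Arl14ep (0.98), Psph (0.98), Aff1 (0.97) and Aars (0.97). Mthfd2 encodes a mitochondrial folate enzyme, Psph the last enzyme of serine synthesis and Aars alanyl-tRNA synthetase. The 5 most like Chac1 were Gpt2, Yars, Jdp2, Aldh18a1 and Hax1, each at r = 0.98. Gpt2 encodes a mitochondrial alanine transaminase, Yars tyrosyl-tRNA synthetase, Jdp2 a bZIP repressor and Aldh18a1 an enzyme of proline synthesis. Gpt2 ranged from 11.03 to 86.6 CPM and Jdp2 from 5.40 to 28.4 CPM across lines.

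Genes acting upstream and downstream of the members were read from lists of pathway genes, in the fit on genes past the minimum, where 55.7% of genes were called in 66708 and 70.7% in 88943 against the shERWOOD mean. In 66708 3046 of 9489 genes were called higher and 2239 lower. In 88943 2635 of 9174 were called higher and 3855 lower. With equal library medians 48.3% and 50.3% of the called genes were higher, so this lean depends on the normalization. ATF4 target enzymes, transporters and secreted factors fell in 66708 and rose in 88943. Of 32 tested in 66708, 26 were lower, 3 higher and 3 not called, with a median of -0.34 against 0.02 over all genes, and Gpt2 (-0.91), Pck2 (-0.91) and Asns (-0.90) were lowest. Of 31 tested in 88943, 28 were higher, 1 lower and 2 not called, with a median of 0.57 against -0.04, led by Pck2 (1.62), Gpt2 (1.58) and Slc7a11 (1.41). The CARE core was found in the window of 12 of 29 genes of that list.

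The eIF2 kinases and translation factors did not share that pattern. Of 17 tested in the Slpi set, 6 were higher and 3 lower in 66708, with Impact, an inhibitor of GCN2, at 0.29, Eif2ak4 at -0.27 and Eif2s2 at -0.27. Of 18 in the Mgp set, 2 were higher and 10 lower in 88943, Eif2s1, which encodes the phosphorylated subunit of eIF2, by the most (-0.67 ± 0.03, adjusted p = 2.83e-11). In both sets, calls in either direction were no more frequent in this list than over all genes. Its medians were 0.04 in 66708 and -0.13 in 88943. Genes with a mean at least 3 units above the smallest value had medians of 0.05 and -0.15. Eif2ak3 was 1.57-fold higher in 88943 and Ppp1r15a, whose product directs dephosphorylation of eIF2, 1.27-fold higher.

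Chaperones and other XBP1 or ATF6 targets of the endoplasmic reticulum went the other way from the ATF4 targets in most cases. In 66708 13 of 17 were higher and 1 lower, with a median of 0.32 and with Calr at 0.62, Dnajc3 at 0.56 and Pdia6 at 0.53. In 88943 5 were higher and 11 lower, with a median of -0.14. Over genes with a mean at least 3 units above the smallest value, the medians were 0.05 in 66708 and -0.15 in 88943. The list median thus lay near that of such genes in 88943 and above it in 66708. Dnajc3 (-0.46) and Hyou1 (-0.37) fell in 88943 and Herpud1, a factor of protein degradation at that organelle, rose (1.01). Hspa5, the main chaperone, was 1.35-fold higher in 66708 and 0.849 times the shERWOOD level in 88943.

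Hypoxia targets, read because Ddit4 is also a hypoxia gene, were lower in 66708 for 10 of 12 and higher in 88943 for 11 of 11. Car9 stood at -0.92 and 1.43, Ndrg1 at -0.87 and 0.98 and Vegfa at -0.83 and 0.71 in the 2 comparisons, while Ddit4 was -0.13 and 1.61. Genes of mTORC1 control, the pathway Ddit4 restrains, were split, with 5 of 11 higher and 2 lower in 66708 and 5 of 11 higher and 4 lower in 88943. The sestrin gene Sesn3 was higher in both (0.53 and 0.31).

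Other bZIP factors were split as well. Of 24 tested 8 were higher and 2 lower in 66708, and 10 were higher and 10 lower in 88943. Jdp2 was 2.43-fold lower in 66708 and 3.33-fold higher in 88943. Among close paralogs of the members, Trib2 was higher in both TRC lines (0.70 and 0.25), Trib1 was lower in 88943 (-0.25), and Chac2 passed in neither (adjusted p = 0.435 and 0.121).

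**Figure D4:**
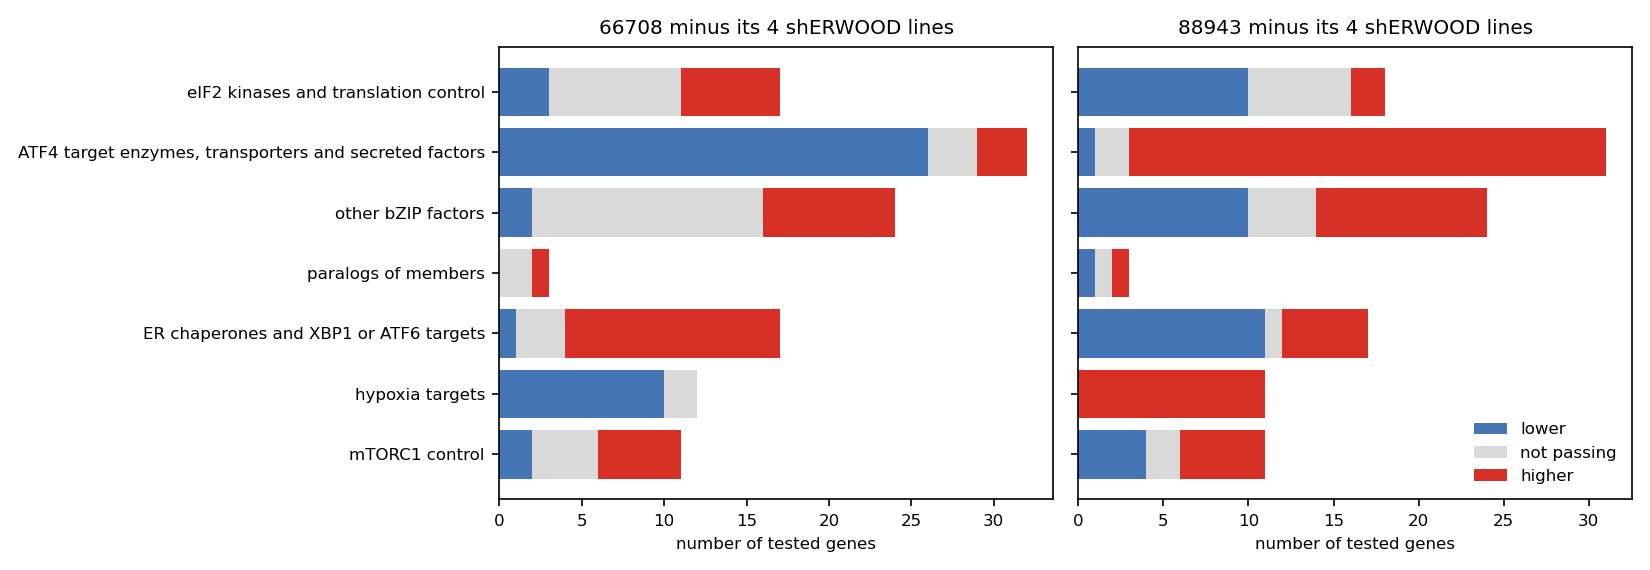
Number of tested genes per pathway list that were lower (blue), not past the threshold (grey) or higher (red) in 66708 (left) and 88943 (right) against the mean of the 4 shERWOOD lines of the table. The ATF4 target list has 26 of 32 lower on the left and 28 of 31 higher on the right.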

How the data were processed

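Total RNA was amplified by the NuGEN Ovation V2 kit and sequenced, per the labels' protocols. Bowtie2, HTSeq, DESeq and the mouse build mm10 are named in the submitters' processing notes. The authors deposited 2 tables of variance-stabilized, log2-like values, 1 per target gene. Inverting the transform (y = 2 to the value, M = 2 to the smallest value, (y - M) squared over y) gave whole reads for 100% of values (tolerance 0.001), from which CPM and scaled-read folds were computed. A difference on the deposited scale understates the fold of low genes. Samples were grouped by the hairpin in their titles.

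Each table was fitted alone with limma 3.58.1 (R 4.3.3), as a means model over 5 hairpins with an intensity trend. Tests were two-sided and Benjamini-Hochberg adjusted over all genes tested (9489 in the Slpi table, 9174 in the Mgp table), calling adjusted p under 0.05. Genes needed a mean at least 1 unit above the smallest value. Members below it were read from a fit on all genes with any spread (21107 and 19354). Correlations used Python 3.11.15 with SciPy 1.17.1. The tests were tried on simulated data first. The 2 columns of every hairpin differed beyond counting noise (chi-square per degree of freedom 1.57 to 12.1) and were kept apart.

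All 10 members, the pathway lists and the markers were chosen with earlier results of these data known. Named genes were the members, up to 3 called genes of each list with the largest difference in each TRC contrast, and the 5 genes most like Atf4 and Chac1. Ppp1r15a, Eif2ak3, Hspa5 and Chac2 were named after their values were seen. Alternatives covered the filter, normalization, trend, a fit on recovered reads, a replicate block, hairpin means and leaving out each library.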

Additional observations from a re-analysis of the deposited data

Results flagged for a closer look

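For 4 genes both TRC libraries lay on opposite sides of the shERWOOD libraries in the 2 tables. Of all genes past the minimum, 20.4% had both 66708 libraries below and 24.3% had both 88943 libraries above. The share of all genes with both patterns was not counted, so the 4 genes are not set apart by it. The differences from the shERWOOD mean were -0.62 in 66708 and 0.21 in 88943 for Atf3, -0.26 and 0.54 for Cebpg, -0.82 and 1.45 for Trib3, and -1.28 and 1.64 for Chac1. The tables were normalized separately, so the difference between them was not tested. Among 20 sets of 4 shERWOOD line means, 1 per member and table, 0 had a line far enough from the others to be marked, where chance marks about 1 in 20.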

How the results depend on the processing

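Single members kept direction and call in 284 of the recomputed TRC contrasts, lost the call in 5 and changed sign in 6, none of the last called. Cebpb in 66708 read -0.0166 with equal library medians and -0.0257 to 0.0465 without single libraries, and Ddit4 -0.258 to 0.000709 without single libraries. Atf4 in 66708 minus Slpi1U1 read -0.0132 under quantile normalization. Over all genes, 5285 were called in the TRC contrast of the Slpi table and 6490 in that of the Mgp table. A minimum of 3 units, which tests fewer genes, gave 1735 and 1928, and hairpin means as samples, with fewer samples, 3042 and 4151. Leaving out single libraries gave 3742 to 5429 and 5461 to 6799. Calls over the 10 pairs were 19278 and 29959, 6809 and 9813 with 3 units, and 14218 to 20658 and 24675 to 37615 without single libraries. F tests called 716 and 2699 genes, 272 and 1483 with no filter, 314 and 994 with 3 units, and 355 to 1294 and 1490 to 4520 without single libraries. The highest of these came without the second Slpi1U1 and the second Mgp2 library, and the low counts, 355 to 401 and 1490 to 1730, came without a Slpi2, Slpi4, Mgp1 or Mgp1U1 library or the second Mgp1U3 library. The cause was not tested. Instances called for Atf4 and a member past the minimum numbered 40 and 28. With 3 units, which leaves most members untested, there were 3 in the Slpi table, and without single libraries 34 to 42 and 24 to 33, on both sides of the reported counts. The median r with Atf4 was 0.90, 0.82 without the 2 farthest lines (chosen after seeing the data), 0.94 without the TRC lines, 0.88 centred within tables and 0.89 to 0.91 without single libraries. Replicate numbers did not pair the samples (r of replicate differences -0.53 to 0.55, over 0.1 in 3 of 10 pairs of hairpins in the Slpi table and 4 of 10 in the Mgp table). The largest were 0.55 for Slpi1U1 with Slpi4, and -0.52 and -0.53 for these lines with 66708. Differences between columns were thus partly shared among these 3 hairpins, in opposite order in 66708. The cause was not tested, and a block by replicate number does not remove such a pattern. With a replicate block the TRC contrasts called 5199 and 6595 genes, and Ddit4 in Slpi1U1 minus Slpi1U2 had an adjusted p of 0.0726. The block also called Atf4 in 5 of 10 Mgp pairs, 1 more than reported. Low reads limit Ddit3 and Trib3, at 46 to 54 reads in their poorest libraries.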
